A study of Solanum lycopersicum with 9 samples.

Results

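The metabolism genes described here are 97 Affymetrix probe sets, from 93 gene clusters, that the study placed in the metabolism class of its annotation. They were selected on the same 9 arrays that are described below, since the study lists a probe set only where its own test found a difference between treatments. The class holds 102 of the 607 listed probe sets, and the array has 10038 tomato probe sets. 5 members of the class, namely 4 of nitrite reduction and of glutamine and glutamate synthesis and sucrose-phosphate synthase, were left out. Because the listing used the differences between treatments, the differences, standard errors, calls and counts of unadjusted p of the members are only a description. They are no test of the members.

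Tomato (Solanum lycopersicum, wild-type cultivar 76R) was grown in pots of field soil, and a solution was injected into a buried ring that roots had grown into. There were 3 treatments with 3 biological replicates each, and each replicate gave 1 array: water (0 µg NH4+-N per g soil), low NH4+ (6.5 µg) and high NH4+ (65 µg). Whole roots of the ring were taken 53 h later, with no sorting of cells, and arbuscular mycorrhizal fungi were scored in a part of them. All plants shared the soil and the earlier nutrient solution, so water roots also had the N of that soil. The paper says that the NH4+ treatment also held sulfate, so NH4+ and sulfate were given together.

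Plant roots turn NH4+ into amino acids with carbon skeletons that come from sugar breakdown, and the same skeletons feed lipids, sterols and nucleotides. Sterols are membrane lipids made from acetyl-CoA through mevalonate, squalene and a run of demethylation and isomerization steps. Sulfate is reduced to sulfide and joined to a serine derivative to give cysteine, so sulfur and N assimilation meet in amino acid synthesis. Aminotransferases pass amino groups between amino acids, and the GABA shunt returns the carbon of glutamate to the tricarboxylic acid cycle.

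Values are log2 signals, so that a difference of 1 is a doubling. A signal of at least 100 on at least 1 array was required, and all 97 members were among the 6670 probe sets that met this limit. The median signal of the arrays was between 6.87 and 7.59. Replicate 2 of low NH4+ (52.7) and replicate 3 of water (-40.3) lay farthest out on the leading principal component of the 9 arrays, which carried 37.8% of the variance. Among root genes, the phosphate transporter PT1, NH4+ transporter AMT1 and NO3- transporter NRT2.1 reached the limit on all 9 arrays and the iron regulator FER on 6. Of 4 green tissue genes, CAB5 and CAB6A reached it on 0 arrays, CAB4 on 6 and PSBO on 4. The summed signal of these 4 genes was between 295.2 and 692.4 in water roots, between 113.5 and 310.9 in low NH4+ roots and between 99.49 and 289.3 in high NH4+ roots. What part this shift has in the differences of the members was not tested. AMT1 is itself a member, and the summed signal of the root genes was between 3386 and 4468 in water roots, between 2943 and 3243 in low NH4+ roots and between 2758 and 3934 in high NH4+ roots. The fruit genes PG2 and E8 reached the limit on 0 arrays, ACS2 on 2 and the Psy1 probe sets on 0 to 8. Their summed signal was between 354 and 469.5 in water roots, between 495.1 and 584.7 in low NH4+ roots and between 281.2 and 357.8 in high NH4+ roots. In whole roots, fewer cells of a type and less RNA per cell cannot be told apart.

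The first question was which metabolism genes differed between high NH4+ and water roots. 6 of the 9 sterol members, AMT2, aspartate aminotransferase and adenylyl-sulfate reductase were higher in high NH4+ roots. An ACX4-like acyl-CoA oxidase, an SRG3-like glycerophosphodiester phosphodiesterase, a BAM1-like beta-amylase and the aminoadipic semialdehyde synthase were lower. Limma called 61 of the 97 members at a false discovery rate of 10%, and 6.52% of all probe sets tested were called. Of these members 35 were higher, where 2.73% of all probe sets were called higher, and 26 were lower, where 3.79% were called lower. After median centring the split of called members was 34 higher and 12 lower. Over all probe sets tested the split was 182 higher and 253 lower, and 221 and 134 after median centring. The values of all 3 high NH4+ arrays lay above those of all 3 water arrays in 50 members (13.4% of all probe sets) and below them in 40 (19.6%). The median difference was 0.40 over the members, beside -0.08 over all probe sets tested. The listing used this contrast, so these shares say nothing further about the members. The count by limma fell to 0 when replicate 1 of water, or replicate 1 or 2 of high NH4+, was dropped, while 82, 86 and 81 had an unadjusted p under 0.05. The study listed members by its own test on these arrays, which favours such counts of unadjusted p. Here and below they do not show that a difference holds. Dropping replicate 3 of water left 16 calls, dropping replicate 1 of low NH4+ left 34, and dropping both arrays that lay farthest out left 24. Without both arrays, 94 of all probe sets tested were called higher and 76 lower.

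**Figure D1:**
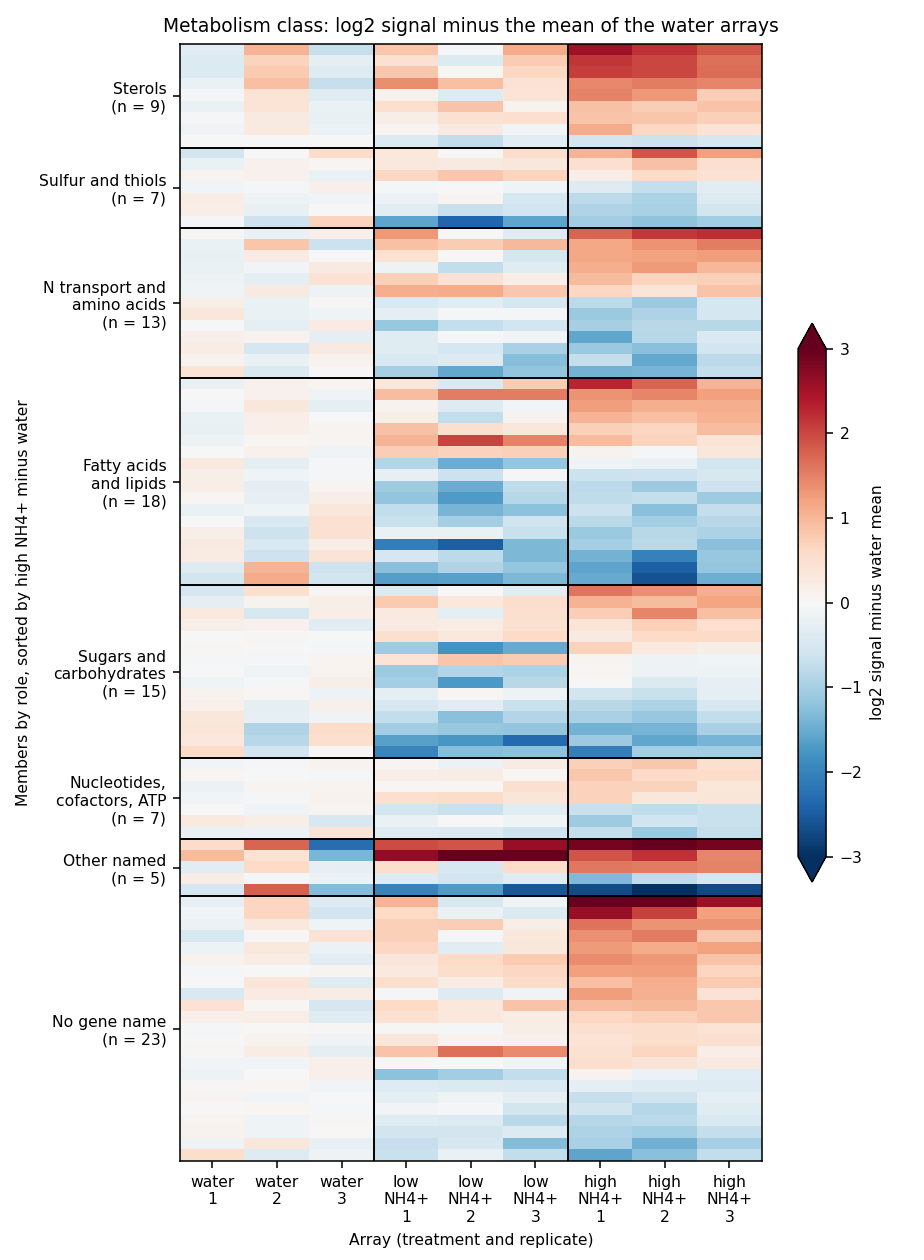
Log2 signal of each member minus its mean over the water arrays (colour, from -3 to 3), with the 9 arrays as columns and members as rows, grouped by role. On the 3 high NH4+ arrays 8 of the 9 sterol members lie above their water mean.

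The second question was which members differed between low NH4+ and water roots. The malonyltransferase and the enoyl-ACP reductase of fatty acid synthesis, a tryptophan synthase-related protein and O-acetylserine (thiol) lyase were higher in low NH4+ roots. A glycosyl hydrolase of family 17, both trehalose enzymes, a GDSL lipase and a class 3 lipase were lower. Limma called 22 members, 8 higher and 14 lower, where 2.98% of all probe sets were called, 0.54% higher and 2.44% lower. Median centring gave 14 higher and 7 lower, and quantile normalization 8 and 5. The arrays did not overlap in 20 members that were higher (7.78% of all probe sets) and 33 that were lower (17.5%). The median difference of the members was -0.11, beside -0.16 for all probe sets tested. It was 0.25 after median centring, which put the median of all probe sets at 0.21. Limma called 0 members without water replicate 1 or 3, low NH4+ replicate 2, high NH4+ replicate 3 or both arrays that lay farthest out, while 39, 42, 46, 49 and 39 had an unadjusted p under 0.05. It called 5 without low NH4+ replicate 1, 6 without high NH4+ replicate 1 and 4 without high NH4+ replicate 2. Of all probe sets tested it also called 0 without both arrays that lay farthest out.

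The third question was which members differed between the high and low NH4+ treatments. Limma called 7 members. All 7 had the higher signal in high NH4+ roots. Of all probe sets tested 0.9% were called, 0.84% higher and 0.06% lower. They were both probe sets of aspartate aminotransferase, an AXS2-like UDP-apiose/UDP-xylose synthase, the family 17 glycosyl hydrolase, trehalose-phosphate synthase 1, a GDSL lipase and Les.4710.1.S1_at, which has no gene name. For the glycosyl hydrolase and trehalose-phosphate synthase 1 the signal was lower in low NH4+ roots than in both other treatments. The count by limma was 0 when replicate 2 of low NH4+, or replicate 1 or 2 of high NH4+, was dropped, while 40, 36 and 37 had an unadjusted p under 0.05. Dropping replicate 1 of water gave 4 calls and dropping its replicate 3 gave 2. Dropping replicate 1 of low NH4+ gave 13, dropping its replicate 3 gave 29, and dropping both arrays that lay farthest out gave 2.

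The low and high NH4+ comparisons share the 3 water arrays. In both, 7 members were called: malonyl-CoA:ACP malonyltransferase was higher, and 6 were lower. These 6 were a CXE18-like carboxylesterase, a 3-hydroxybutyryl-CoA dehydrogenase, the aminoadipic semialdehyde synthase, GABA-TP1, a UGE1-like UDP-galactose 4-epimerase and a TPS6-like trehalose enzyme. A further 54 members were called in high NH4+ roots alone and 15 in low NH4+ roots alone, but a call in one comparison and not in the other was not tested as a difference. Group means stood in the order water, low, high in 36 members (37.1%, and 12.5% of all probe sets tested). They stood in the reverse order in 30 members (30.9%, and 20% of all probe sets). The low NH4+ mean was the lowest in 23 members (23.7%, and 44.7% of all probe sets) and the highest in 8 (8.25%, and 22.7%). Here and below, the orders were counted without rescaling and not again after it. Median centring moved the median of all probe sets in low NH4+ against water roots from -0.16 to 0.21. In high against low NH4+ roots it moved from 0.07 to -0.18. The listing used these contrasts, so the shares say nothing further about the members.

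**Figure D2:**
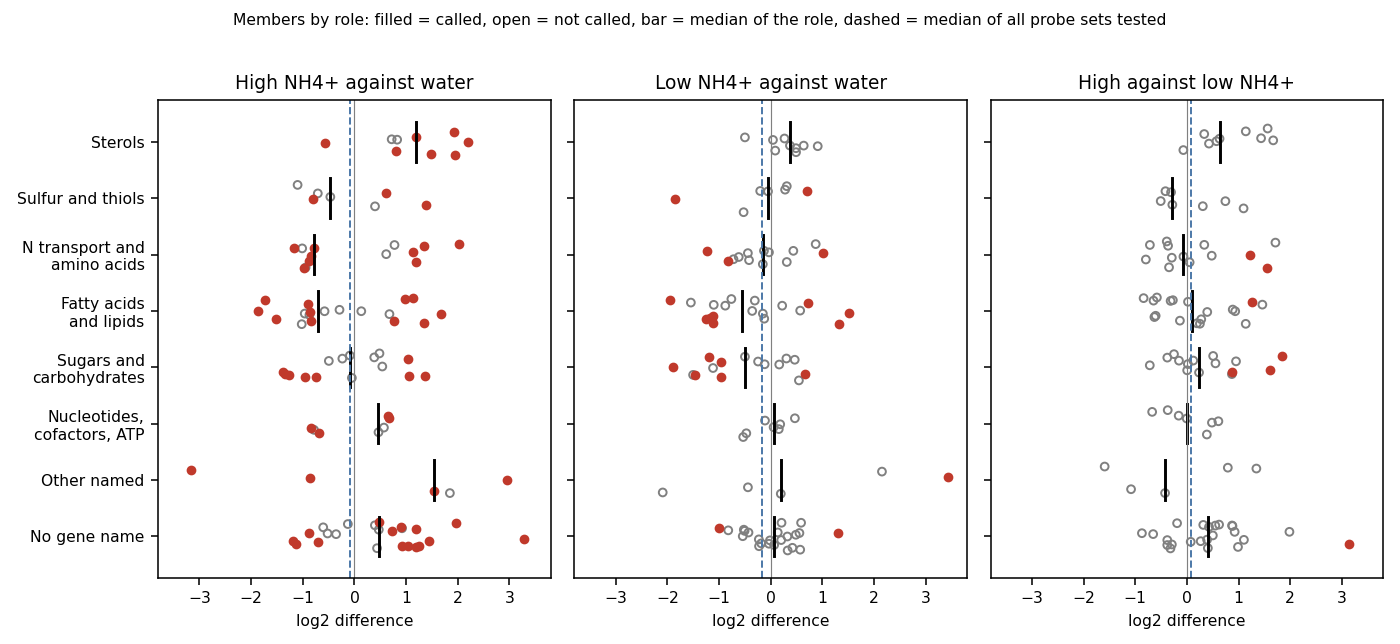
Log2 difference of each member (x axis) by role (rows), with 1 panel for each comparison. Filled points were called, open points were not, bars are role medians and the dashed line is the median of all probe sets tested. Sterol members lie to the right of 0 in high NH4+ roots except for 1.

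Roles were given to 74 members with a gene name or enzyme family, in 7 groups. Their splits after median centring or without arrays stand beside the shifts of all probe sets tested that are given above. Names that end in -like come from the study's annotation by similarity to Arabidopsis proteins, and the roles given are those known in Arabidopsis. Of the 9 sterol members, 6 were called higher and 1 lower in high NH4+ roots, and limma called 0 in low NH4+ roots, where 2 had an unadjusted p under 0.05. After median centring 6 were higher and 0 lower, and without both arrays that lay farthest out 3 were higher and 0 lower. Their median difference was 1.18 in high NH4+ roots and 0.37 in low NH4+ roots. In 8 of the 9 the group means stood in the order water, low, high. Other probe sets of the same clusters did not all share it. In low NH4+ against water roots the SMT2-like member was at 0.09, and the other 2 of its cluster were at -0.82 and -0.48. The HYD1-like member was at 0.37 there, and the other probe set of its cluster at 0.05.

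The largest differences were those of sterol 4-methyl oxidases, which take methyl groups from the sterol ring. SMO1-1-like had log2 signals of 6.59, 7.95 and 6.23 in water roots, 7.76, 6.87 and 8.05 in low NH4+ roots and 9.48, 9.11 and 8.79 in high NH4+ roots. It was higher in high NH4+ than in water roots by 2.20 (standard error 0.46). Every high NH4+ array lay above every water and low NH4+ array, while low NH4+ and water arrays overlapped. SMO2-1-like has 2 member probe sets. The first gave 7.40, 8.48 and 7.53 in water roots, 8.26, 7.39 and 8.56 in low NH4+ roots and 9.95, 9.81 and 9.46 in high NH4+ roots. The second gave 7.96, 9.14 and 7.98 in water roots, 9.16, 8.41 and 8.98 in low NH4+ roots and 10.44, 10.37 and 10.04 in high NH4+ roots. Both showed the same pattern, with differences of 1.94 and 1.93 between high NH4+ and water roots and water replicate 2 the highest water array.

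HMG-CoA synthase (MVA1-like), an early enzyme of the mevalonate pathway, had signals of 8.09, 9.20 and 7.59 in water roots, 9.69, 9.19 and 8.73 in low NH4+ roots and 9.74, 9.82 and 9.76 in high NH4+ roots. Its high NH4+ arrays were close together and its water arrays spread widely, and the difference was 1.48 (standard error 0.39). Further along the pathway, the FACKEL-like sterol C14 reductase was higher in high NH4+ than in water roots by 1.19, and the HYD1-like sterol isomerase by 0.80, and both were called. The SMT2-like sterol methyltransferase, which lengthens the side chain, was higher by 0.72 and the UGT80A2-like sterol glucosyltransferase by 0.83, and neither was called. The exception was sterol carrier protein 2, a lipid transfer protein and not an enzyme of synthesis, which was called lower by -0.57. Its log2 signals were between 9.95 and 9.99 in water roots, between 9.22 and 9.64 in low NH4+ roots and between 9.33 and 9.45 in high NH4+ roots.

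Sulfur and thiol members numbered 7, of which 2 were called higher and 1 lower in high NH4+ roots, and 1 higher and 1 lower in low NH4+ roots. The 2 called higher in high NH4+ roots were reductive steps toward cysteine. After median centring 1 member was called higher and 1 lower there. Without both arrays that lay farthest out it was 1 higher and 0 lower. The paper says that sulfate in the NH4+ treatment may have affected sulfur genes, though it calls soil sulfur likely sufficient. Effects of NH4+ and of sulfate cannot be told apart here. Adenylyl-sulfate reductase, which reduces activated sulfate to sulfite, had signals of 8.09, 8.61 and 9.19 in water roots, 8.95, 8.63 and 9.15 in low NH4+ roots and 9.64, 10.53 and 9.85 in high NH4+ roots. All 3 high NH4+ arrays lay above the rest, and the difference from water was 1.38 (standard error 0.32). Sulfite reductase, the next step, was called higher by 0.62 in high NH4+ roots, and its difference was 0.31 in low NH4+ roots. Of the 9 fits that left out 1 array, 3 kept this call and 5 kept that of adenylyl-sulfate reductase. O-acetylserine (thiol) lyase, which makes cysteine, was called higher by 0.70 in low NH4+ roots, and its difference was 0.40 in high NH4+ roots. Sulfite oxidase, which turns sulfite back into sulfate, was lower by -0.47 in high NH4+ roots and was not called.

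Thioredoxin m4, a plastid protein that reduces disulfides, has 2 member probe sets. The second gave 9.04, 8.63 and 8.85 in water roots, 8.50, 8.18 and 8.27 in low NH4+ roots and 7.94, 7.87 and 8.29 in high NH4+ roots. The first gave 9.96, 9.58 and 9.66 in water roots, 9.55, 9.82 and 9.22 in low NH4+ roots and 8.95, 8.80 and 9.33 in high NH4+ roots. The second was called lower in high NH4+ than in water roots, by -0.81, and the first, at -0.71, was not called. The high NH4+ and water arrays did not overlap in either. A protein with a cystathionine beta-synthase domain had signals of 8.53, 7.97 and 9.25 in water roots, 7.0, 6.20 and 7.0 in low NH4+ roots and 7.54, 7.37 and 7.54 in high NH4+ roots. Such domains bind adenosyl compounds in many proteins, and this gene was lowest in low NH4+ roots, at -1.85 from water (standard error 0.33).

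Among 13 members for N transport and amino acids, 4 were called higher and 5 lower in high NH4+ roots, and 1 higher and 2 lower in low NH4+ roots. After median centring the high NH4+ split was 5 higher and 1 lower, and without both arrays that lay farthest out 3 higher and 0 lower. The NH4+ transporter AMT2 had signals of 7.78, 7.53 and 7.90 in water roots, 9.05, 7.74 and 7.37 in low NH4+ roots and 9.48, 9.86 and 9.96 in high NH4+ roots. It was called higher in high NH4+ than in water roots, by 2.03 (standard error 0.38), and AMT1 was called lower, by -0.85 (standard error 0.21).

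Aspartate aminotransferase, which exchanges amino groups between glutamate and aspartate, has 2 member probe sets. Its second probe set gave 7.79, 7.92 and 8.26 in water roots, 7.84, 7.24 and 7.63 in low NH4+ roots and 9.07, 9.27 and 9.00 in high NH4+ roots. The high NH4+ arrays lay apart from both other groups, which overlapped. The differences were 1.12 from water and 1.54 from low NH4+ roots (standard error 0.20 each). The first probe set was higher in high NH4+ roots by 1.20 from water and 1.23 from low NH4+ roots. Alanine aminotransferase was higher than in water by 0.78 in high NH4+ roots, which was not called.

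The 3 GABA transaminases, which break down the amino acid GABA, differed in direction. GABA-TP2 had signals of 9.95, 10.99 and 9.52 in water roots, 11.04, 10.91 and 11.13 in low NH4+ roots and 11.32, 11.51 and 11.69 in high NH4+ roots. It was called higher in high NH4+ than in water roots, by 1.35 (standard error 0.33). GABA-TP1 was called lower, by -0.88 in high NH4+ roots and by -0.82 in low NH4+ roots. GABA-TP3 was at -0.95 in high NH4+ roots and -0.15 in low NH4+ roots and was not called. The enzyme that makes GABA, glutamate decarboxylase gad2, is no member and was not listed by the study. Its difference was 0.73 in high NH4+ roots (standard error 0.24, limma adjusted p = 0.136) and 0.81 in low NH4+ roots (standard error 0.24, limma adjusted p = 0.126).

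The bifunctional alpha-aminoadipic semialdehyde synthase begins lysine breakdown. It had signals of 8.72, 7.87 and 8.31 in water roots, 7.30, 6.77 and 7.12 in low NH4+ roots and 6.87, 6.89 and 7.59 in high NH4+ roots. Both NH4+ groups lay below water, by -1.18 in high NH4+ roots and -1.23 in low NH4+ roots (standard error 0.28 each). Chorismate synthase CS2, of the shikimate pathway, was called lower in high NH4+ roots by -0.79. The tyrosine breakdown enzyme homogentisate dioxygenase (HGO) was called lower there by -0.98. In low NH4+ roots the tryptophan synthase-related protein was called higher, by 1.0, and in high NH4+ roots its difference was 0.61.

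**Figure D3:**
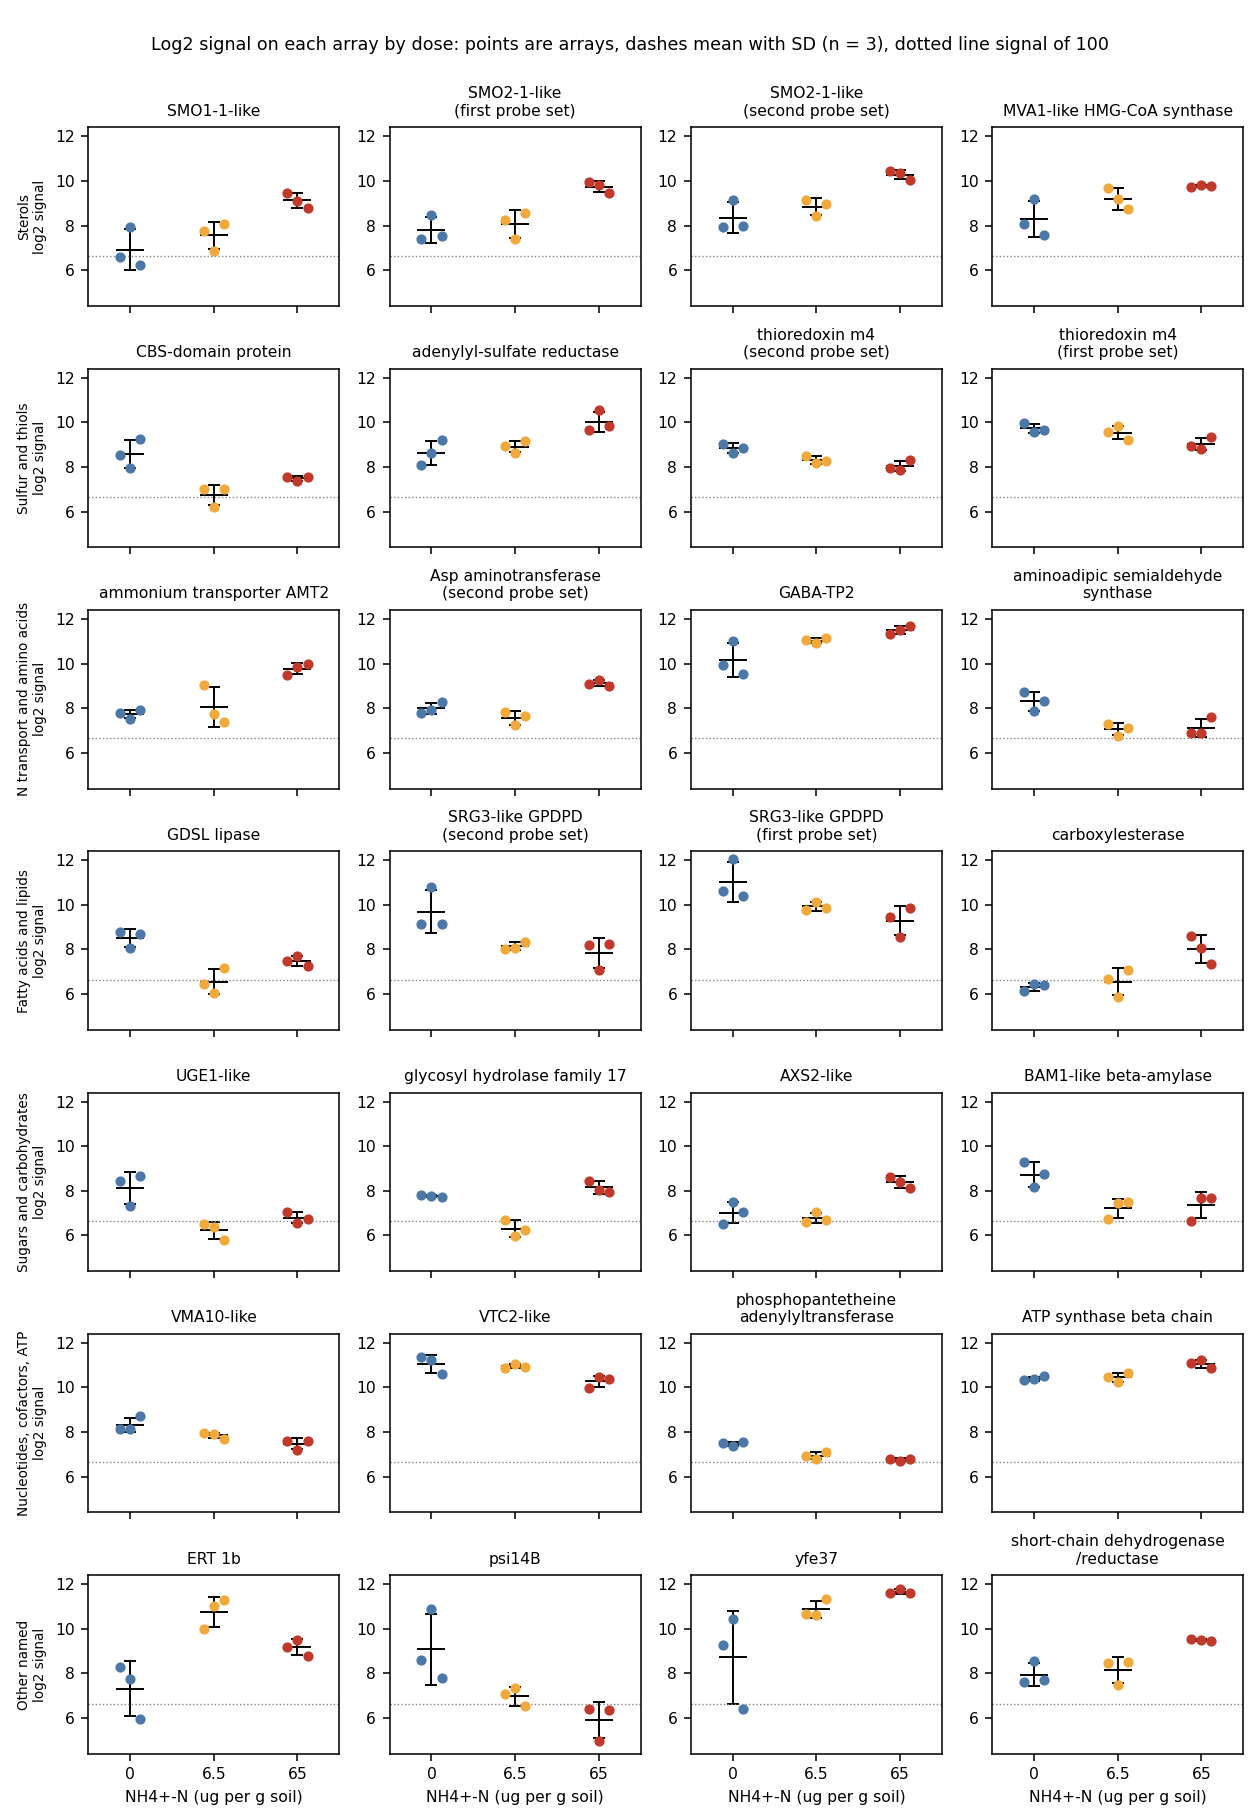
Log2 signal (y axis) against dose (x axis, µg NH4+-N per g soil, drawn at equal spacing) for the 4 named members of each of 7 roles with the largest differences. Points are arrays, dashes are means with SD (n = 3 each), and the dotted line is a signal of 100. The high NH4+ points of the sterol members lie above those of both other doses, by the least for HMG-CoA synthase, where low NH4+ replicate 1 was at 9.69 and the lowest high NH4+ array at 9.74.

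Fatty acid and lipid members numbered 18, with 5 called higher and 6 lower in high NH4+ roots and 3 higher and 5 lower in low NH4+ roots. After median centring these splits were 5 and 4, and 4 and 3. Without both arrays that lay farthest out they were 4 and 0, and 0 and 0. The 3 members that act in fatty acid synthesis in plastids had differences above 0 in both NH4+ treatments, while BCCP1, a carboxylase subunit of the same pathway that is no member, was at -0.06 in high NH4+ roots and -0.08 in low NH4+ roots (limma adjusted p = 0.864 and 0.782). Malonyl-CoA:ACP malonyltransferase, which loads malonyl groups onto the acyl carrier protein, was called higher in high NH4+ roots by 1.35 and in low NH4+ roots by 1.33, with all 3 water arrays under a signal of 100. The MOD1-like enoyl-ACP reductase, which closes each elongation cycle, was called higher in low NH4+ roots by 1.51, and its difference was 0.68 in high NH4+ roots. The SSI2-like stearoyl-ACP desaturase, which puts in the first double bond, was called higher in high NH4+ roots by 0.77, and its difference was 0.57 in low NH4+ roots.

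Both members of fatty acid breakdown had differences below 0. The ACX4-like acyl-CoA oxidase was called lower in high NH4+ roots by -1.52, and its difference was -0.88 in low NH4+ roots. The 3-hydroxybutyryl-CoA dehydrogenase was called lower by -0.83 in high NH4+ roots and by -1.11 in low NH4+ roots. Of the glycerolipid enzymes, the CDP-diglyceride synthetase was called lower in low NH4+ roots by -1.18, where all 3 arrays were under a signal of 100, and the diacylglycerol acyltransferase family member was called lower in high NH4+ roots by -0.90. Phospholipase D PLDb1 was called higher in low NH4+ roots by 0.71, beside 0.13 in high NH4+ roots.

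The SRG3-like glycerophosphodiester phosphodiesterase, which frees glycerol phosphate from deacylated phospholipids, has 2 member probe sets. The second gave 9.15, 10.80 and 9.14 in water roots, 8.04, 8.06 and 8.35 in low NH4+ roots and 8.20, 7.08 and 8.24 in high NH4+ roots. The first gave 10.64, 12.04 and 10.41 in water roots, 9.78, 10.14 and 9.86 in low NH4+ roots and 9.45, 8.58 and 9.86 in high NH4+ roots. All NH4+ arrays lay below all water arrays in both, and water replicate 2 and high NH4+ replicate 2 were the extremes. The differences of high NH4+ from water roots were -1.86 and -1.73, and both were called.

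GDSL lipases, a large family of esterases, were split. One of them had signals of 8.77, 8.06 and 8.70 in water roots, 6.45, 6.05 and 7.17 in low NH4+ roots and 7.50, 7.70 and 7.27 in high NH4+ roots. It was called lower in low NH4+ roots by -1.96 (standard error 0.31). The other 2 were called higher in high NH4+ than in water roots, by 1.14 and 0.99, with differences of -0.12 and -0.15 in low NH4+ roots. A carboxylesterase had signals of 6.12, 6.45 and 6.41 in water roots, 6.67, 5.89 and 7.08 in low NH4+ roots and 8.60, 8.07 and 7.35 in high NH4+ roots. In high NH4+ roots it was called higher, with a difference of 1.68 (standard error 0.37), and no water array reached a signal of 100. The CXE18-like carboxylesterase was called lower, by -0.85 in high NH4+ roots and -1.25 in low NH4+ roots.

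Sugar and carbohydrate members numbered 15, with 3 called higher and 5 lower in high NH4+ roots and 1 higher and 5 lower in low NH4+ roots. The median difference was -0.09 in high NH4+ roots and -0.50 in low NH4+ roots. It was 0.03 and -0.14 after median centring. Without both arrays that lay farthest out the calls were 2 higher in high NH4+ roots and 0 in low NH4+ roots. In 7 of the 15 (46.7%) the low NH4+ mean was the lowest of the 3, as in 44.7% of all probe sets tested.

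Enzymes that make nucleotide sugars for cell walls and glycolipids went both ways. The UGE1-like epimerase, which interconverts UDP-glucose and UDP-galactose, had signals of 8.45, 7.30 and 8.65 in water roots, 6.50, 6.40 and 5.79 in low NH4+ roots and 7.05, 6.56 and 6.75 in high NH4+ roots. It was called lower by -1.35 in high NH4+ roots and -1.90 in low NH4+ roots (standard error 0.35 each), where it was under a signal of 100 on all 3 low NH4+ arrays. The AXS2-like UDP-apiose/UDP-xylose synthase had signals of 6.53, 7.50 and 7.06 in water roots, 6.61, 7.04 and 6.70 in low NH4+ roots and 8.63, 8.41 and 8.11 in high NH4+ roots. Its high NH4+ arrays lay above all others, by 1.36 from water and 1.60 from low NH4+ roots (standard error 0.26 each).

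A glycosyl hydrolase of family 17, the family of beta-1,3-glucanases, had signals of 7.81, 7.76 and 7.73 in water roots, 6.70, 5.97 and 6.26 in low NH4+ roots and 8.46, 8.05 and 7.94 in high NH4+ roots. The water arrays were close together, all low NH4+ arrays lay below them and all high NH4+ arrays above. The difference was 1.84 between high and low NH4+ roots (standard error 0.22), and 0.38 between high NH4+ and water roots, which was not called. The second family 17 member was called lower in low NH4+ roots, by -1.19, and its difference was -0.23 in high NH4+ roots. GluB, a beta-1,3-glucanase, had differences of 0.48 in high NH4+ roots and 0.47 in low NH4+ roots and was not called.

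The starch and trehalose members had differences below 0 in both NH4+ treatments. The BAM1-like beta-amylase, which breaks starch down to maltose, had signals of 9.29, 8.15 and 8.73 in water roots, 6.74, 7.45 and 7.49 in low NH4+ roots and 6.67, 7.69 and 7.68 in high NH4+ roots. The arrays of both NH4+ treatments lay below all water arrays, by -1.38 in high NH4+ roots, which was called, and by -1.50 in low NH4+ roots, which was not (standard error 0.38 each). Trehalose-phosphate synthase 1, which makes the sugar signal trehalose 6-phosphate, was called lower in low NH4+ roots by -0.97, where all 3 arrays were under a signal of 100, and its difference from water was -0.09 in high NH4+ roots. The TPS6-like trehalose enzyme was called lower in both, by -0.95 in high NH4+ and -0.96 in low NH4+ roots. The other tested probe set of its cluster was at -0.54 and -0.25, with a mean log2 signal of 9.965 beside 7.014 for the member.

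Steps of the pentose phosphate pathway, which supplies reducing power and ribose, differed from each other. The G6PD3-like glucose-6-phosphate dehydrogenase, its first enzyme, was called higher in high NH4+ roots by 1.04. The 6-phosphogluconolactonase family member, the next step, was called lower there by -1.27. Transaldolase ToTAL2 was called higher in low NH4+ roots by 0.67, beside -0.05 in high NH4+ roots. Fructokinase FRK1 was at 0.54 in high NH4+ and 0.30 in low NH4+ roots and was not called. Sorbitol dehydrogenase SDH was called lower in high NH4+ roots by -0.75, and beta-mannosidase, which cleaves mannose from glycans, was called higher there by 1.05.

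Nucleotide, cofactor and ATP members numbered 7, with 2 called higher and 2 lower in high NH4+ roots and 0 called in low NH4+ roots, by limma, where 3 had an unadjusted p under 0.05. The beta chain of mitochondrial ATP synthase had signals of 10.32, 10.36 and 10.50 in water roots, 10.48, 10.22 and 10.64 in low NH4+ roots and 11.10, 11.21 and 10.87 in high NH4+ roots. Its difference of 0.67 in high NH4+ roots was called (standard error 0.17). The VMA10-like subunit of the vacuolar ATPase, a proton pump, had signals of 8.12, 8.14 and 8.70 in water roots, 7.94, 7.90 and 7.71 in low NH4+ roots and 7.61, 7.21 and 7.62 in high NH4+ roots. It was called lower in high NH4+ roots by -0.84 (standard error 0.20).

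Phosphopantetheine adenylyltransferase, of coenzyme A synthesis, had signals of 7.49, 7.36 and 7.57 in water roots, 6.92, 6.80 and 7.11 in low NH4+ roots and 6.82, 6.72 and 6.81 in high NH4+ roots. It was called lower in high NH4+ roots by -0.69 (standard error 0.14), with all NH4+ arrays below all water arrays. VTC2-like, the enzyme that commits GDP-galactose to ascorbate synthesis, had signals of 11.36, 11.23 and 10.59 in water roots, 10.86, 11.05 and 10.93 in low NH4+ roots and 9.98, 10.45 and 10.40 in high NH4+ roots. Its difference in high NH4+ roots was -0.78, which was not called. The TK1-like deoxyribonucleoside kinase, of nucleotide salvage, was called higher in high NH4+ roots by 0.64. Both nucleoside diphosphate kinases, which balance the nucleoside triphosphates, had differences above 0 there, 0.57 for NDPK3-like and 0.47 for NDPK2-like, and were not called.

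The 5 other named members included ERT 1b, with the largest difference of the class. ERT 1b, a transcript first described from ripening fruit, had signals of 8.28, 7.75 and 5.94 in water roots, 9.99, 11.02 and 11.28 in low NH4+ roots and 9.20, 9.52 and 8.79 in high NH4+ roots. The low NH4+ arrays lay above all others, by 3.44 from water (standard error 0.58), and the difference of high NH4+ from water roots was 1.85. Without replicate 3 of water, the lowest array, the difference of low NH4+ from water roots was 2.75 and the call was lost, which is below the 3.28 of Les.4710.1.S1_at in high NH4+ roots. The gene psi14B, named for its induction by phosphate starvation, had signals of 8.58, 10.87 and 7.79 in water roots, 7.07, 7.37 and 6.53 in low NH4+ roots and 6.39, 4.97 and 6.36 in high NH4+ roots. It was called lower in high NH4+ roots by -3.17 (standard error 0.72), where all 3 arrays were under a signal of 100, and its probes can also bind related transcripts. Its difference was -2.28 without water replicate 2.

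The gene yfe37, whose function the annotation does not give, had signals of 9.27, 10.45 and 6.42 in water roots, 10.67, 10.61 and 11.32 in low NH4+ roots and 11.60, 11.80 and 11.59 in high NH4+ roots. Its difference of 2.95 in high NH4+ roots was called (standard error 0.83), and its difference was 1.80 without water replicate 3, the low value among the water arrays. A short-chain dehydrogenase/reductase had signals of 7.60, 8.55 and 7.70 in water roots, 8.48, 7.47 and 8.49 in low NH4+ roots and 9.52, 9.50 and 9.45 in high NH4+ roots. Its high NH4+ arrays lay close together above all others, by 1.54 from water (standard error 0.33).

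The annotation gives no gene name for 23 members, of which 11 were called higher and 4 lower in high NH4+ roots and 1 higher and 1 lower in low NH4+ roots. Les.4710.1.S1_at had the largest difference of these, with signals of 6.26, 7.14 and 6.11 in water roots, 7.53, 6.03 and 6.38 in low NH4+ roots and 10.18, 10.12 and 9.07 in high NH4+ roots. It was called higher in high NH4+ roots by 3.28 from water and 3.15 from low NH4+ roots (standard error 0.46 each). Les.4957.1.S1_at was called higher by 1.97 from water. The largest lower differences were -1.19 for Les.5068.1.S1_at and -1.14 for Les.5392.1.S1_at.

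The members near the limit of a call had differences of the same order as others well inside it. In high NH4+ against water roots, the G6PD3-like enzyme at 1.04 (standard error 0.29) was just inside and the UGT80A2-like glucosyltransferase at 0.83 (standard error 0.23) just outside. In low NH4+ against water roots, ToTAL2 at 0.67 (standard error 0.16) was just inside and the BAM1-like amylase at -1.50 (standard error 0.38) just outside. In high against low NH4+ roots, the first aspartate aminotransferase probe set at 1.23 (standard error 0.24) was just inside and LesAffx.12783.1.S1_at at 0.87 (standard error 0.19) just outside. Over the class the largest difference of a member in any comparison was between 0.43 and 3.44, and in 51 members it was at least 1. The members' signals were on the whole not dim: the median of their mean log2 signals was 8.97, beside 8.47 for all probe sets tested. A signal of 100 was reached on all 9 arrays by 75 of the 97 (77.3%, and 71.8% of all probe sets tested).

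Other probe sets of the same gene clusters, most of which the study did not list, gave a further reading of the same RNA. There were 23 of them among the probe sets tested, in 18 clusters, and the study listed 1 in another class. They are on the same arrays and so are no independent replicates. In high NH4+ against water roots all 23 had the sign of the member, in low NH4+ against water roots 18 had it, and in high against low NH4+ roots 20 had it. The 3 other UGE1-like probe sets gave -1.55, -1.27 and -1.10 in high NH4+ roots, beside -1.35 for the member. The other 2 psi14B probe sets gave -3.14 and -3.30, and the other 2 of SMT2-like gave 0.74 and 0.63. The psi14B probe set at -3.30 had log2 signals of 3.29, 9.05 and 4.20 in water roots. In high NH4+ roots it had 1.89, 2.40 and 2.36. Only water replicate 2 reached the signal limit in this probe set. Its difference therefore rests largely on that array and adds little to the reading of the member. The widest gap was that of the VMA10-like subunit, at -0.01 beside -0.84.

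**Figure D4:**
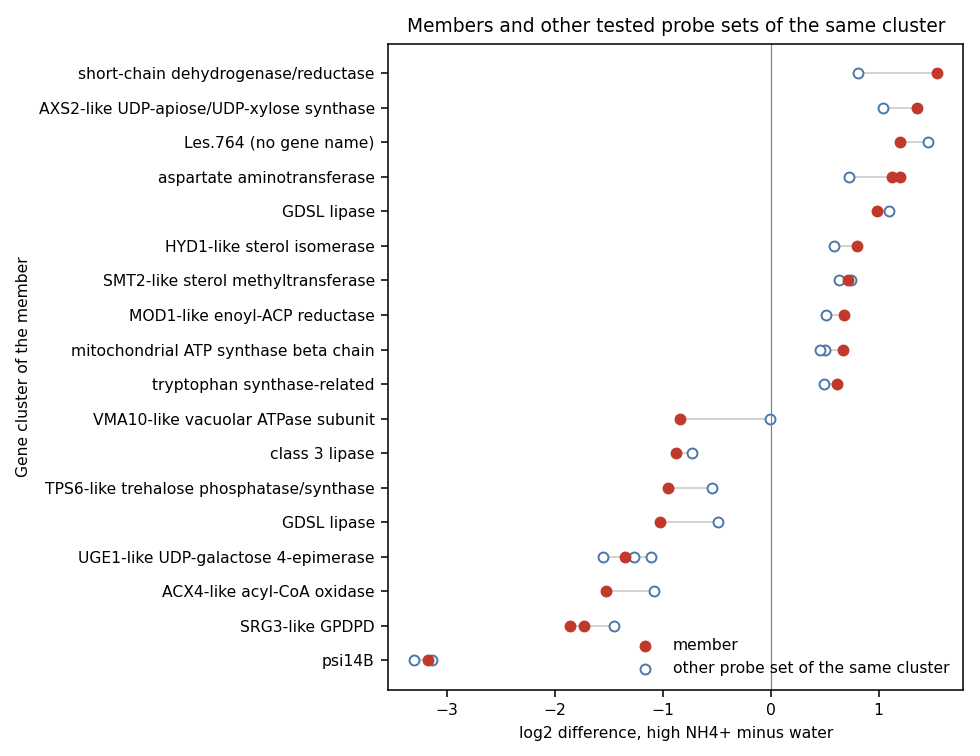
Log2 difference of high NH4+ minus water roots (x axis) for members (filled) and other tested probe sets of the same cluster (open), 1 row for each of 18 clusters. All open points have the sign of their member, and that of the VMA10-like subunit lies closest to 0. Only probe sets with a signal of at least 100 on at least 1 array are shown.

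To show more of these pathways, 10 lists of gene symbols took 45 tested probe sets, of which 8 are members. Only 909 probe sets have a gene symbol, so the lists do not hold all of a pathway. By title, some listed probe sets of these pathways stand in other classes of the study, as do 3 of 11 for sterol synthesis. In high NH4+ against water roots 2 were called higher and 3 lower, in low NH4+ against water roots 2 higher and 2 lower, and in high against low NH4+ roots 0 by limma. Of all probe sets tested, 6.52%, 2.98% and 0.9% were called in these comparisons. Of the 45, the unadjusted p was under 0.05 for 15, 14 and 14, with no share over all probe sets to set beside it. The 8 members had been selected on these contrasts, so these counts are no result about the pathways. All but 2 of the calls on the lists were of members described above. Glucose-6-phosphate isomerase GPI1, which the study listed in its energy class, was called higher in high NH4+ roots by 0.64. The beta-amylase BMY3 was not listed by the study. The second of its 3 probe sets had signals of 8.55, 7.95 and 9.32 in water roots, 7.23, 6.46 and 7.55 in low NH4+ roots and 7.71, 7.33 and 7.52 in high NH4+ roots. It fell by 1.53 in low NH4+ roots (standard error 0.37, limma adjusted p = 0.0979), and the other 2 were at -0.27 and -1.57 there with adjusted p of 0.567 and 0.14 from limma. This call was lost when replicate 1 or 3 of water was dropped, when replicate 1 or 2 of low NH4+ was, and when any 1 of the high NH4+ arrays was.

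Among the mevalonate genes that were not listed, HMG-CoA reductase HMGR had a difference of 0.52 in high NH4+ against water roots (standard error 0.25, limma adjusted p = 0.252). Farnesyl diphosphate synthase FPPS1, the branch point to sterols, had one of 0.68 (standard error 0.22, limma adjusted p = 0.127). In low NH4+ against water roots HMGR was at -0.16 and FPPS1 at 0.68. The 5 tested probe sets of this list ran from -0.08 to 1.5 in high NH4+ against water roots. Their medians were 0.58 there and -0.16 in low NH4+ roots. Limma called 0 of the 5 in each comparison, with 1, 1 and 3 at an unadjusted p under 0.05. The 4 tested acyl lipid synthesis probe sets had median differences of -0.45 in high NH4+ and -0.48 in low NH4+ roots. Of these 4, 4 of methionine and S-adenosylmethionine metabolism and 4 of ascorbate synthesis, limma called 0 in each comparison. The unadjusted p was under 0.05 for 2, 0 and 0 of these in high NH4+ against water roots, for 0 of them in low NH4+ against water roots and for 0, 1 and 3 in high against low NH4+ roots. Over the fructokinases and hexokinases it also called 0 of 5, with 1, 0 and 1 at an unadjusted p under 0.05 in the 3 comparisons. Over phospholipase D the 1 call among 4 was PLDb1, with 1, 3 and 2 at an unadjusted p under 0.05. In low NH4+ against water roots PLDa1, PLDa3 and PLDb2 were at -0.16, -0.69 and -0.73, opposite in sign to PLDb1.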

How the data were processed

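RNA of 9 root samples, 3 biological replicates per treatment, was hybridized to the Affymetrix tomato array, 1 array each. The authors computed MAS5 signals in Affymetrix Expression Console (version not given in the sources used here), and the values deposited are natural log (ln) signals. They were divided by ln 2 to give log2. After 171 control probe sets were left out, 6670 of 10038 tomato probe sets had a signal of at least 100 on at least 1 array. Limma 3.58.1 in R 4.3.3 fitted the 3 groups together, with Benjamini-Hochberg adjustment within each comparison and calls at a false discovery rate of 10%, and was tested on simulated data. The number of arrays limits the precision. Gene names come from the study's annotation and a platform table, which can be old. The authors' own folds and p-values were not used. The members and gene lists were chosen with earlier results of these data known. In each role the 4 named members with the largest difference in any comparison are given by array, others only by difference. Members singled out beyond this, such as sterol carrier protein 2, and Les.4710.1.S1_at by array, were chosen after their values were seen. TKR was taken from a list after its values were seen because no source used here gives its function. Alternatives were other filters, scalings, tests and thresholds, a replicate block, and leaving out arrays.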

Additional observations from a re-analysis of the deposited data

Results flagged for a closer look

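The glycosyl hydrolase of family 17 with the largest difference between high and low NH4+ roots had differences of opposite sign from water in the 2 treatments. Relative to water its log2 difference was 0.383 in high NH4+ roots (standard error 0.22), which was not called, and -1.46 in low NH4+ roots, which was called. Every high NH4+ array lay above, and every low NH4+ array below, all 3 water arrays, and 2 of the low NH4+ arrays were under a signal of 100. Both differences share the water arrays, and whether the direction differs was not tested.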

How the results depend on the processing

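The counts of called members depended on the settings. Across the alternatives, 2978 differences of named members moved by less than the spread between replicates. Another 130 moved by more, and 0 changed sign with a call. Part of the 2978 could not move, since a replicate block or the loss of an array outside the comparison leaves a difference as it is. The count is therefore no measure of how stable the differences are. In high NH4+ against water roots 61 members were called, beside 13 with no filter on low signals, 16 by the methods' test, 13 at a false discovery rate of 5% and 24 without low NH4+ replicate 2 and water replicate 3. Leaving out 1 array at a time gave 0 to 69. In low NH4+ against water roots 22 were called, beside 5 with no filter and 13 after quantile normalization. There were 0 by the methods' test, by limma on the 2 groups alone, by limma at 5% and by limma without both arrays, where 43, 46, 51 and 39 members had an unadjusted p under 0.05. Leaving out 1 array at a time gave 0 to 31, and the median difference was 0.253 after median centring. In high against low NH4+ roots 7 were called, beside 2 with no filter, 2 after quantile normalization, 3 after median centring, 13 by limma-trend, 1 at 5% and 2 without both arrays. The methods' test called 0, where 47 had an unadjusted p under 0.05, and leaving out 1 array at a time gave 0 to 29. Run here, the methods' test called fewer members than the study listed, and what differs from the study's own run was not tested. The cause of these changes was not tested, except that a limit of 5% calls fewer by construction.

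With the replicate number as a block, 25 members were called in high NH4+ against water roots, 19 in low NH4+ against water roots and 1 in high against low NH4+ roots. The deviations of same-numbered arrays correlated between -0.378 and 0.349, and not every pair was above 0.1. The plants stood in blocks, but the sources used here do not say whether the replicate number marks the block, and the methods' array model has no block term. The numbers were therefore not taken to pair the samples.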
